A study of Homo sapiens with 12 samples.

Results

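The regions described here are 760 FOXA1 binding sites of LNCaP cells at which the FOXA1 signal was higher, relative to the other shared sites of each library, in every pair of libraries that differs by the EZH2 inhibitor EPZ-6438. Peaks of the 8 FOXA1 libraries with 1 base or more in common were joined into 140968 regions, and 24242 of these were called in all 8 libraries and are named constitutive here. The signal of a region in a library is its normalized tag count (the peak's tags per 1e+07 tags of the library), taken as log2 (tag count + 1) and centred on the library's median over the 24242 regions. A region was kept when the centred signal was higher by at least 0.3 in EPZ-6438 replicate 1 over DMSO replicate 1, EPZ-6438 replicate 2 over DMSO replicate 2, combination replicate 1 over P5091 replicate 1 and combination replicate 2 over P5091 replicate 2. These regions are called rising for the rule that chose them and not for a test. The mirrored rule, with all 4 differences at or below -0.3, chose 665 regions that are called falling and serve for comparison.

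FOXA1 is a forkhead pioneer factor: it binds its sites in closed chromatin of luminal prostate cells and opens them for other factors, among them the androgen receptor. EZH2 is the catalytic subunit of Polycomb repressive complex PRC2, which methylates histone H3 and is known for gene silencing, and non-histone substrates of EZH2 are known as well. USP7 is a deubiquitinase, which removes ubiquitin from proteins that would otherwise be degraded. The title of the series places both enzymes in a study of FOXA1 protein stability.

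LNCaP is an established, androgen-responsive human prostate cancer cell line. The 8 FOXA1 libraries, 2 per group, come from cells given 1 µM EPZ-6438, the combination of 1 µM EPZ-6438 and 3 µM P5091 (a USP7 inhibitor), 3 µM P5091, or the vehicle DMSO (spelled DMO in some labels), all for 7 days. Another 4 libraries were made with an HA antibody, 1 per condition, 5 days after infection: cells with an shRNA against FOXA1 (shFoxA1) that also carry the K295A form of FOXA1, cells with shFoxA1 that carry WT FOXA1, cells with shFoxA1 alone, and cells with the control vector pGIPZ. Whether replicates were grown as separate cultures is not stated, so every spread between replicates, and every p-value built on it, covers only the difference between these libraries.

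FOXA1 libraries held 12299238 to 22589685 tags. Combination replicate 1 stood apart: 5.26% of its tags lay in peaks and 30811 peaks were called, against 18.86% to 21.2% of tags and 68504 to 84423 peaks in the other FOXA1 libraries. The constitutive set rests on it: without this library 37729 regions were called in all the others, and the rule on the remaining 3 differences chose 1598 of them, 741 of the 760 included. The untagged HA libraries had 971 peaks with shFoxA1 alone and 982 with pGIPZ.

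Rising regions were regions of low FOXA1 signal without EPZ-6438 that stood near the constitutive median with it. Their median normalized tag count was 29.9 and 36.6 in EPZ-6438 replicates 1 and 2, against 20.5 and 18.6 in the DMSO replicates. In the combination replicates it was 14.4 and 37.1, against 18.9 and 23 in the P5091 replicates. Over all constitutive regions the medians were 35.0 and 38.2 in EPZ-6438, against 40.2 and 36.0 in DMSO, while the combination gave 15 and 36.3, against 38.5 and 37.5 in P5091. After centring, the library medians of the rising regions lay between -0.22 and 0.03 on the log2 scale in the 4 libraries with EPZ-6438. In the 4 libraries without it these medians lay between -0.99 and -0.68. The 2 ranges of medians do not overlap, while single regions lie outside them. The rule fixes the order within each of the 4 pairs and favours it between libraries of different pairs.

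The median centred difference of the rising regions was 0.69 and 0.75 for EPZ-6438 over DMSO in replicates 1 and 2, and 0.89 and 0.61 for the combination over P5091. The mean of a region's 4 differences had a median of 0.77, a 1.70-fold change, and ranged from 0.34 to 1.67, or up to 3.19-fold. It was at least 1 at 134 regions, and all 4 differences were at least 1 at 14. Counting error alone gave a difference between 2 libraries a standard error of 0.31 to 0.40 at the median tag numbers of these regions, so a single difference of 0.3 is no larger than its own error. Many members sat close to the limit: 301 of the 760 (39.6%) had a smallest difference below 0.4, and 258 had all 4 differences at 0.5 or above. The difference for EPZ-6438 over DMSO was the larger of the 2 kinds at 356 of the 760 regions, with medians of 0.74 for EPZ-6438 over DMSO and 0.77 for the combination over P5091.

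The rise is relative in combination replicate 1. Without centring, all 760 regions had more signal in EPZ-6438 than in DMSO in both replicates and in combination than in P5091 in replicate 2. The library medians of those pairs lie so close that the limit of 0.3 fixes this outcome. Only 135 (17.8%) had more in combination replicate 1 than in P5091 replicate 1. The median uncentred difference of that last pair was -0.42 on the log2 scale, against 0.50, 0.84 and 0.56 in the other pairs, EPZ-6438 replicate 1 over DMSO replicate 1 first.

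The 4 differences share no library, and each was also described at the regions that met the other 3 conditions. The 760 members are those that met all 4, so these shares describe how often the conditions coincide and are no test of the rise. At the 1359 regions that met the other 3 conditions, EPZ-6438 over DMSO in replicate 1 was at least 0.3 in 55.9%, against 25.3% of all constitutive regions. The shares for EPZ-6438 over DMSO in replicate 2 were 60.4% of 1259 chosen regions and 24.5% of all regions. They were 71.2% of 1067 chosen regions and 32.8% of all regions for the combination over P5091 in replicate 1, and 47.4% of 1605 and 22.8% in replicate 2. The medians of the remaining difference were 0.39, 0.45, 0.65 and 0.27, against -0.003, -0.04, 0.03 and -0.02 over all regions. The remaining difference was at or below -0.3 in 4.59% to 10.8% of the chosen regions. The mirrored conditions coincided to a like extent: at regions where the other 3 differences were at or below -0.3, the remaining one was so in 51.8%, 64.8%, 58.9% and 49.1%. Both replicates of a treatment were filtered against the same input library, and the libraries share the dependence of these differences on signal strength. A trend of the median on signal strength, fitted to these same libraries, was also subtracted. The rule then chose 664 regions, 539 of them among the 760. The shares were 59.1%, 64.6%, 64.5% and 46.7%, against 25.1%, 26%, 29.1% and 22.6% of all regions. The step does not alter the wider spread of weak sites, and what input or signal strength adds was not tested.

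**Figure D1:**
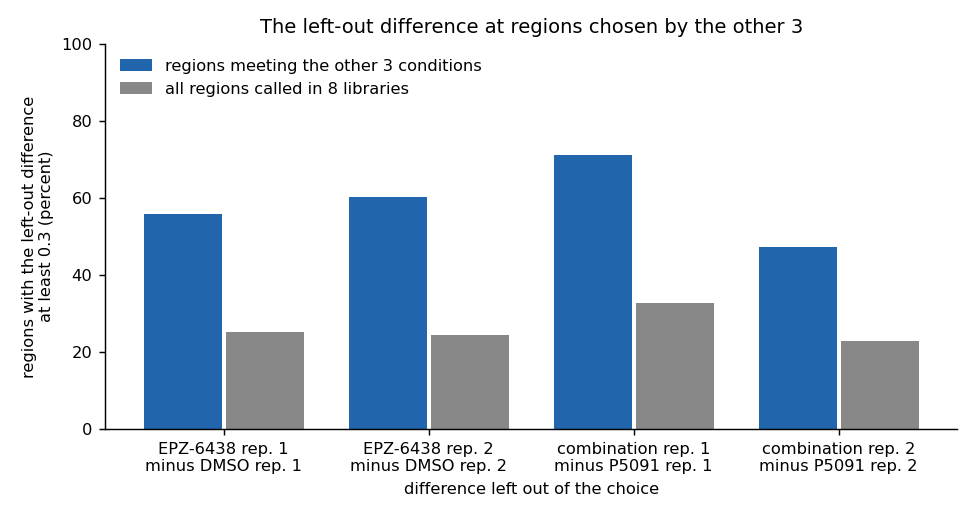
Share of regions, in percent, with the left-out difference at or above 0.3 (log2, centred), for regions that met the other 3 conditions (blue) and for all 24242 constitutive regions (grey). The blue bars run from 47.4% to 71.2% and the grey bars from 22.8% to 32.8%.

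The clearest member, by the size of its smallest difference, was chr18:35620739-35621147 (build hg19, as all coordinates here). Its normalized tag count was 34.5 and 25.2 with EPZ-6438, against 11.7 and 8.13 with DMSO, while the combination gave 10.6 and 29.2, against 7.83 and 10.9 with P5091, replicate 1 first. EPZ-6438 and DMSO libraries do not overlap there, whereas combination replicate 1 lies below P5091 replicate 2 before centring. The centred differences averaged 1.55 ± 0.16 (SD over the 4 pairs), and neither the K295A nor the WT HA library had a peak. The nearest other FOXA1 region of any library was 33443 bases away.

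At chr2:195063301-195063737 the counts were 24.8 and 45.5 with EPZ-6438, against 12.4 and 13.4 with DMSO, while the combination gave 10.6 and 29.2, against 10.4 and 12.7 with P5091. The mean difference was 1.32 ± 0.21, and this site carried an HA peak of 15.8 with K295A and 13.0 with WT. At chr4:81630615-81631049 the mean difference was among the highest of the named regions, 1.60, but with the widest spread of these 8, ± 0.53. The counts there were 28.8 and 29.3 with EPZ-6438, against 14.6 and 6.97 with DMSO, while the combination gave 20.6 and 45.8, against 10.4 and 20 with P5091. It is one of the members at which combination and P5091 libraries do not overlap even without centring. The even case was chr18:3966946-3967352, a stronger site with 62.0 and 46.3 in EPZ-6438, against 30 and 19.2 in DMSO, while the combination gave 25.6 and 60.0, against 29.4 and 26 in P5091. Its 4 centred differences spread by only ± 0.05 around 1.17.

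The remaining 4 of these 8 regions, chr12:18787301-18787726, chr11:89154061-89154461, chr8:2205611-2206063 and chr7:38581005-38581411, had mean differences of 1.18 to 1.26. At all 8, both EPZ-6438 libraries lay above both DMSO libraries. The nearest other constitutive region lay 66754 bases away at chr2:195063301-195063737 and farther at the other 7.

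**Figure D2:**
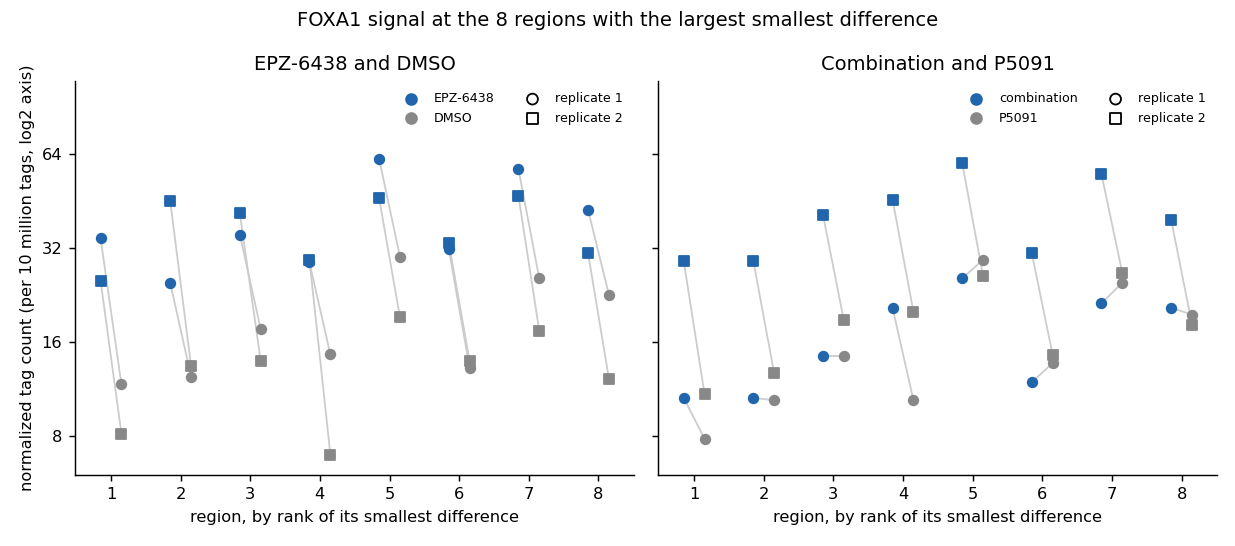
Normalized tag count (per 1e+07 tags, log2 axis) at the 8 rising regions with the largest smallest difference, ranked from 1 to 8. Blue points are EPZ-6438 (left panel) and combination (right panel), grey points DMSO and P5091, circles replicate 1 and squares replicate 2, with lines joining the pairs. EPZ-6438 lies above DMSO in both replicates of all 8, which the choice of these regions fixes. Combination replicate 1 lies level with or below P5091 replicate 1 at 4 of the 8 before centring.

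The threshold separates regions that hardly differ. Just inside it, chr2:7779643-7780026 had 59.8 and 59.4 with EPZ-6438, against 54.1 and 45.3 with DMSO, while the combination gave 25.6 and 60.0, against 47.0 and 46.0 with P5091. Just outside it, chr7:788662-789104 had 21.2 and 19.5 with EPZ-6438, against 19.0 and 13.4 with DMSO, while the combination gave 8.13 and 18.2, against 15.7 and 15.1 with P5091. The smallest of the 4 centred differences was 0.30 in both. Another region just outside, chr14:77769940-77770351, had a mean difference of 0.69, above the 0.38 of the member chr2:7779643-7780026, so the rule weighs evenness over the 4 pairs before size.

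By the mean over the 8 libraries, all of them used by the rule, rising regions were weak constitutive sites. Their geometric mean tag count over the 8 libraries had a median of 23.1 (quartiles 18.9 and 30.6, range 11.2 to 103), against 32.5 for all constitutive regions and 40.8 for falling regions. When the constitutive regions were ranked by mean signal and cut into 5 classes of equal size, the weakest class held 319 rising regions, 6.58% of that class, and the strongest held 16, or 0.33%. The 3 classes between held 211, 141 and 73. Falling regions ran the other way, with 24 in the weakest class and 200 in the strongest. With classes made from the 4 libraries with EPZ-6438, they held 107, 198, 212, 171 and 72 rising regions, weakest first. Falling regions there numbered 115, 157, 136, 124 and 133. The contrast was wider in the libraries without EPZ-6438, with 497 rising and 2 falling regions in the weakest class. It is partly fixed by the choice. The median log2 signal of rising regions was 0.48 below that of all constitutive regions. It was 0.13 below when the regions were chosen after the trend of the differences on mean signal had been removed.

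**Figure D3:**
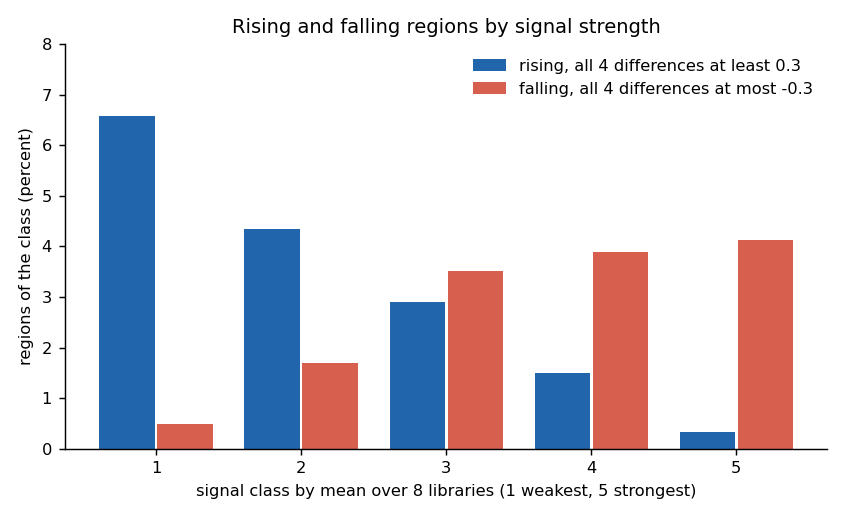
Percent of each of 5 equal signal classes of the constitutive regions, from weakest (1) to strongest (5) by mean signal over 8 libraries, that was chosen as rising (blue) or falling (red). The blue bars fall from 6.58% to 0.33% across the classes and the red bars climb to 4.12%.

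A weak site lies near the limit of peak calling. In the libraries without EPZ-6438, 10.3% and 5.39% of the rising regions (DMSO) and 10.7% and 2.37% (P5091) had at most 1.5 times the tags needed for a call. The shares with EPZ-6438 were 0% and 0.39%, and in the combination 13.2% and 0%. Over all constitutive regions they were 0.30% and 1.60% in EPZ-6438, against 1.47% and 0.70% in DMSO, and 17.6% and 2.00% in the combination, against 1.98% and 0.57% in P5091. More rising regions than all regions lay near the limit in DMSO and P5091, and fewer in EPZ-6438 and the combination. A region that lacked a call in even 1 of the 8 libraries was not among those the rule could choose. Of the 140968 merged regions, 93 were called in all 4 libraries with EPZ-6438 and in none without it, and 696 had the reverse pattern. The first pattern needs a call in combination replicate 1, the library with the fewest peaks, and the second needs none there. The 2 counts are thus not a balance of sites gained and lost.

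Strong sites were the exception among rising regions. The strongest, chr21:48118152-48118556, had 121.3 and 163.4 with EPZ-6438, against 100.2 and 95.2 with DMSO, while the combination gave 52.5 and 157.0, against 78.9 and 101.7 with P5091. EPZ-6438 libraries lie above DMSO libraries without overlap, with a mean difference of 0.64 ± 0.12. The next, chr1:249238580-249238958, had 116.4 and 143.1 with EPZ-6438, against 73.1 and 81.3 with DMSO, while the combination gave 56.9 and 155.5, against 75 and 118.6 with P5091, with a mean difference of 0.73 ± 0.21.

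Both of these sites lie at the end of the FOXA1 regions of their chromosome. No merged FOXA1 region of chromosome 21 lies beyond the first, and the second is 1489 bases from the outermost region of chromosome 1. HA peaks covered both, with 70.1 (K295A) and 59.5 (WT) at the chromosome 21 site and 67.0 and 62.6, in the same order, at the chromosome 1 site. Among all rising regions on assembled chromosomes, 19 of 759 (2.50%, 95% exact binomial interval 1.51 to 3.88) lay within 1 Mb of the outermost FOXA1 region of their chromosome, against 1.65% of constitutive regions (1.49 to 1.82) and 1.21% of falling regions. The intervals of the rising and of all constitutive regions overlap, and intervals here cover counting error only.

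The next 3 by strength, chr1:210052930-210053310, chr2:12248129-12248532 and chr10:8186420-8186821, lay inside chromosomes and had mean differences of 0.54, 0.55 and 0.41. At the last of them the counts were 82.3 and 116.3 with EPZ-6438, against 70.9 and 81.9 with DMSO, while the combination gave 31.9 and 101, against 62.6 and 75.7 with P5091. Its differences were small but even, with an SD of 0.04.

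The peak caller's own ratios are made from the same tags that chose the regions and are given as a description. The deposited fold over the local window had medians of 23 and 34.1 at rising regions in EPZ-6438, against 17.8 and 19.9 in DMSO, while the combination gave 14.9 and 36.7, against 17.7 and 22.8 in P5091. The deposited fold over input was 25.1 and 40.1 in EPZ-6438, against 18.2 and 22.6 in DMSO. Over all constitutive regions it was 29.1 and 40.1 in EPZ-6438, against 32.6 and 37.7 in DMSO. The fold over the local window was 21.4 and 28.5 over all constitutive regions in EPZ-6438, against 24.1 and 27.2 in DMSO. In EPZ-6438 the rising regions were above all regions in fold over the local window in both replicates, but below them in fold over input in replicate 1 and level in replicate 2. In DMSO they were below in both. Peak shape differed little: the deposited fraction of a peak's tags that lie on the expected side of its centre was 0.88 to 0.91 at rising regions in all 8 libraries.

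HA-tagged FOXA1 was measured in other cells and played no role in the choice. Fewer rising regions than constitutive regions carried an HA peak: 583 of 760 (76.7%, 95% exact binomial interval 73.5 to 79.7) overlapped a K295A peak and 582 (76.6%, 73.4 to 79.5) a WT peak by at least 1 base. Of all constitutive regions 90.7% and 91.3% did, K295A first, and of falling regions 97.0% and 97.6%. Both proteins were found at 520 rising regions (68.4%, against 87.1% of all) and neither at 115 (15.1%, against 5.07%). The untagged controls overlapped 0 of 760 rising regions with shFoxA1 alone, which allows a share of up to 0.48% (upper bound of the exact interval), and 1 with pGIPZ.

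HA signal was also lower. Where a peak was present, the median HA tag count of rising regions was 17.3 with K295A and 18.3 with WT, against 26.4 and 26.7 over all constitutive regions and 40.7 and 42.0 over falling regions. The strongest rising region without a WT peak was chr10:97068608-97069000, with a K295A peak of 23.4. Its FOXA1 counts were 65.5 and 52.0 with EPZ-6438, against 45.3 and 36.0 with DMSO, while the combination gave 34.4 and 69.4, against 48.9 and 40.6 with P5091. At chr12:74432943-74433322 neither HA library had a peak, although FOXA1 counts were 42.1 and 56.9 with EPZ-6438, against 33.6 and 34.3 with DMSO.

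HA overlap was also described within classes of FOXA1 signal. When constitutive regions were split into 5 classes by their mean signal in the DMSO and P5091 libraries, 497 of the 760 rising regions fell in the weakest class and 68.6% of these overlapped a WT peak (64.3 to 72.7), against 75.3% of all regions of that class. In class 2 the shares were 90.2% (84.6 to 94.3) for 164 rising regions and 88.9% for all, and in class 3 91.2% (81.8 to 96.7) and 94.8%. All 24 and 7 rising regions of the upper 2 classes had a WT peak. The median WT tag count was 16, 19.8, 26.3, 35.1 and 46.6 at rising regions from the weakest to the strongest class, against 15.3, 19.1, 24.4, 32.1 and 53.4 for all regions. In the weakest class the interval of rising regions lay below that of all regions (74.0 to 76.5), and in the other 4 classes it included the share of all regions.

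With classes made from the 4 libraries with EPZ-6438, rising regions had a WT peak in 58.9%, 67.7%, 77.4%, 88.3% and 97.2% from the weakest to the strongest class, against 78.6%, 88.0%, 93.2%, 97.3% and 99.4% of all regions. The intervals lie below the share of all regions in the first 4 classes. The rule sets rising regions beside weaker sites in the first split and beside stronger sites in the second, so the difference between the splits is partly fixed by the choice.

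**Figure D4:**
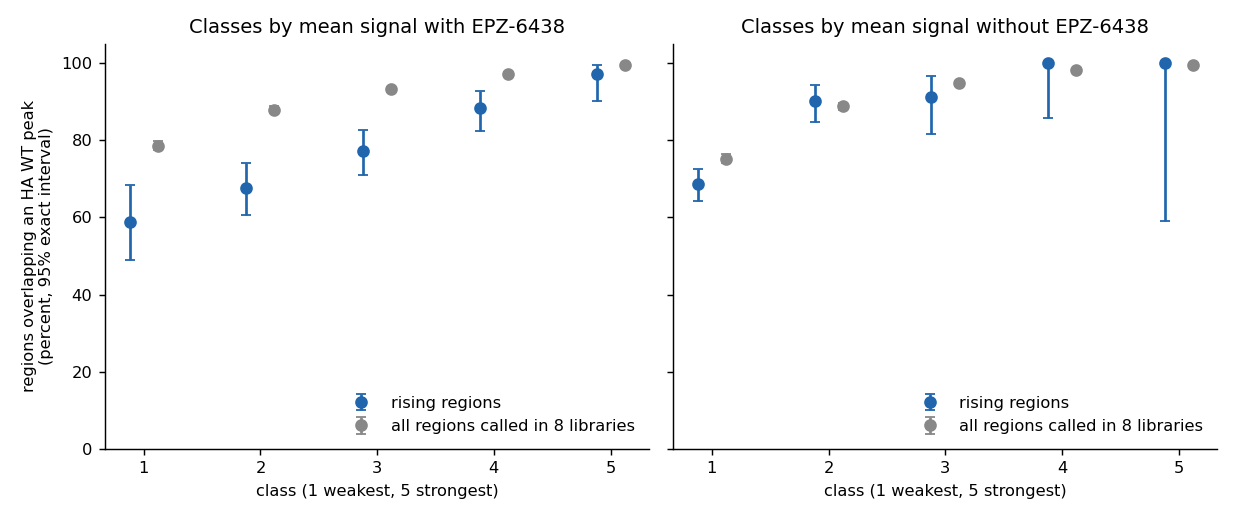
Percent of regions that overlap an HA WT peak, by class of mean FOXA1 signal in the 4 libraries with EPZ-6438 (left) and the 4 without it (right), for rising (blue) and all constitutive regions (grey), with 95% exact binomial intervals. Rising regions lie at 58.9% to 97.2% on the left, below all regions in each class, and at 68.6% to 100% on the right.

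The K295A protein gave nearly the WT signal at rising regions. Over the 520 sites with both peaks, K295A relative to WT was at a median of -0.07 on the log2 scale (quartiles -0.37 and 0.29), against -0.03 over all constitutive regions and -0.02 over falling regions, and 96.0% of the 520 lay within 2-fold, against 97.9% of all. With 1 library per condition there is no replicate check. The highest ratio was 2.81 (95% counting interval 1.46 to 5.76) at chr10:31863441-31863846, with 27.9 for K295A and 9.92 for WT. The lowest was 0.36 (0.20 to 0.62) at chr10:8362778-8363152, with 14.3 for K295A and 39.7 for WT. These are the extremes of 520 ratios, and their intervals are not adjusted for that. K295A alone was called at 63 rising regions and WT alone at 62.

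Rising regions were spread out. The median gap to the nearest other constitutive region was 49730 bases, against 31325 for all constitutive regions and 22103 for falling regions, and 93 of the 760 (12.2%) had one within 10 kb, against 21.1% and 27.4%. Without combination replicate 1 the share was 21.5%, against 29.5% of all regions. Counting FOXA1 regions of any library, the median gap was 7496 bases at rising regions, against 5632 for all, and the median number of merged regions within 100 kb was 9, against 12 for all and 14 for falling regions. The gaps were wider within classes of strength too: from the weakest to the strongest class they were 47633, 56563, 53217, 46270 and 35204 bases at rising regions, against 38494, 33866, 30915, 28188 and 26200 for all regions. The gap was wider at rising regions in all 5 classes.

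**Figure D5:**
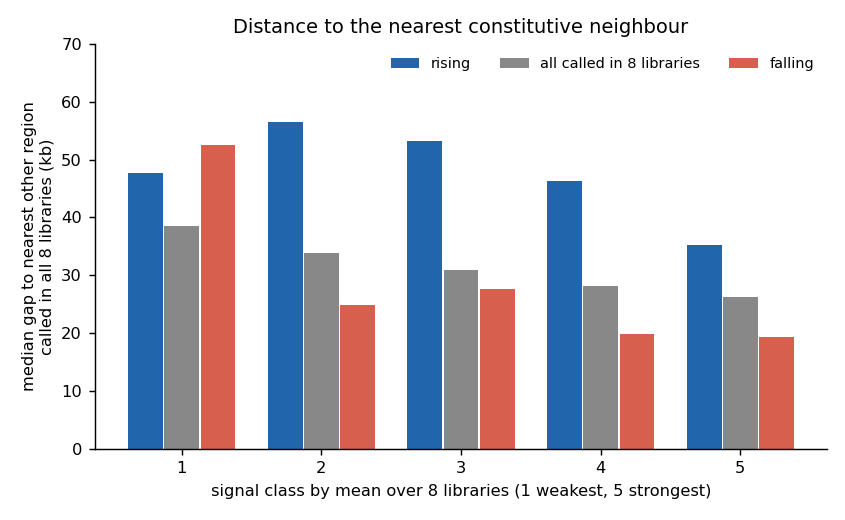
Median distance, in kb, to the nearest other constitutive FOXA1 region by class of mean signal, for rising (blue), all constitutive (grey) and falling regions (red). The blue bar exceeds the grey one in each class, whereas the red bar does so in the weakest class, which holds 24 falling regions.

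Rising regions seldom lay beside each other. Of the 760, 719 had no other rising region within 100 kb, 38 formed 19 pairs and 3 formed 1 group. Another rising region within 100 kb was found for 41 (5.39%), close to the 4.88% of all constitutive regions that had one. Falling regions differed in this: 15.9% had another falling region within 100 kb, against 6.73% of all constitutive regions.

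The group of 3 spans chr8:122368469-122368893, chr8:122392227-122392762 and chr8:122443725-122444234. The last is the strongest, with 69.1 and 79.7 with EPZ-6438, against 28.5 and 35.4 with DMSO, while the combination gave 21.9 and 71.0, against 35.9 and 54.5 with P5091. The first had 21.7 and 33.3 with EPZ-6438, against 13.9 and 13.4 with DMSO, while the combination gave 10.0 and 38.7, against 11.7 and 11.5 with P5091. Their mean differences were 0.89 and 1.20, against 0.67 at the middle one, and all 3 had HA peaks with both proteins. The closest pair of rising regions, chr4:167201806-167202212 and chr4:167203171-167203600, lay 958 bases apart with mean differences of 0.78 and 0.57.

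Most neighbours of rising regions were not chosen on their own difference, but some were rising regions themselves. At 2 to 10 kb these were 4 of 75 (5.33%), against 1.94% of the neighbours of all constitutive regions. At 10 to 50 kb, 50 to 200 kb and over 200 kb they were 2.43%, 4.75% and 7.94%, against 2.62%, 3.65% and 5.56%. The neighbour values are thus not wholly free of the rule. For the 75 rising regions whose nearest constitutive neighbour lay 2 to 10 kb away, the neighbour's mean difference had a median of 0.06 (quartiles -0.10 and 0.30) and was above 0 in 61.3%. For neighbours of all constitutive regions at that distance the median was -0.06 and 41.9% were above 0, and for neighbours of falling regions it was -0.16 with 30.8%. At 10 to 50 kb the neighbour's difference was 0.08 for rising regions, against -0.03 for all, at 50 to 200 kb 0.08, against 0.01, and over 200 kb 0.17, against 0.09. The median was thus above that of all regions at each of these distances. Regions called in all 4 libraries with EPZ-6438 and in none without were found within 100 kb of 8 rising regions (1.05%, against 0.59% of all). The reverse kind was found near 20 (2.63%, against 6.13%). How many regions there are of either kind depends on the few peaks of combination replicate 1.

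All autosomes and chromosomes X and Y held rising regions. The share of a chromosome's constitutive regions that was rising was highest on chromosome 5, with 66 of 1515 (4.36%, 95% exact interval 3.39 to 5.51), followed by chromosome 4 with 58 (4.03%, 3.08 to 5.18). It was lowest on chromosome 17, with 15 of 783 (1.92%, 1.08 to 3.14), and on chromosome X, with 8 of 417 (1.92%, 0.83 to 3.75), while chromosome 1 had 54 of 2331 (2.32%). Over all chromosomes it was 3.14%, and the intervals of chromosomes 5 and 1 lie on opposite sides of that share. The chromosomes were ranked after their values were seen, and the intervals are not adjusted for their number. Rising regions were about as wide as others, with a median of 419 bases, against 409 for all.

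P5091 was the contrast that the choice did not use: all 4 libraries with P5091 (P5091 and combination) were set against the 4 without it (DMSO and EPZ-6438). Rising regions leaned to slightly more signal with P5091, but no region passed the test. In limma's test over the 24242 constitutive regions, 0 were called at a Benjamini-Hochberg adjusted p of 0.05 (0% of those tested), and hence 0 of the 760. At an unadjusted p under 0.05 there were 315 regions (1.30%), of which 24 were rising (3.16% of the 760, 23 of them higher with P5091). edgeR's quasi-likelihood test also called 0, with 360 regions (1.49%) and 32 rising ones (4.21% of the 760) at an unadjusted p under 0.05. With the replicate number as a block, limma again called 0 (0%), with 1041 regions (4.29%) and 58 rising ones (7.63%, 54 higher) at an unadjusted p under 0.05.

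The median log2 difference for P5091 was 0.13 at rising regions, against -0.01 over all constitutive regions and -0.12 over falling regions, and it was above 0 at 562 rising regions (73.9%, against 48.9% of all). Without P5091 replicate 2 the median at rising regions was 0.07, and without each of the other libraries 0.10 to 0.18. A single region's difference had a median standard error of 0.25, larger than that median. The pairs gave medians of 0.03 and 0.18 for P5091 over DMSO and 0.20 and 0.07 for the combination over EPZ-6438, replicate 1 first. Without centring the median over all regions was -0.32 and that of rising regions -0.18, so the direction at rising regions turned. Centring shifts every region of a library by the same amount, so the distance between rising and all regions could not change. Weak regions as a whole leaned the same way: from the weakest to the strongest class the median was 0.17, 0.12, 0.08, 0.09 and 0.00 at rising regions, against 0.09, 0.03, -0.01, -0.03 and -0.07 for all. The same libraries enter the choice of regions and this difference. Their signs are opposite for P5091 and EPZ-6438 and equal for the combination and DMSO. What that adds was not tested.

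The rising region with the smallest p for P5091 in the blocked fit was chr6:74230655-74231088. Its counts were 58.1 and 20 with P5091, against 24.9 and 19.7 with DMSO, while the combination gave 47.5 and 44.2, against 32.3 and 28.5 with EPZ-6438. The combination libraries lie above both EPZ-6438 libraries, while P5091 replicate 2 lies within the range of the DMSO libraries. The difference was 0.90 ± 0.22 (SE), with a limma adjusted p of 0.99983 in the fit with replicate block. At chr8:105805530-105805906 the difference was negative, -0.70 ± 0.24, with 11.7 and 14.5 for P5091, against 24.1 and 16.8 for DMSO, and 10.6 and 20.5 for the combination, against 42.9 and 39.8 for EPZ-6438, and its adjusted p was 0.99983 as well.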

How the data were processed

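Reads of 12 LNCaP ChIP-seq libraries were processed with Bowtie2 and HOMER 4.2 on build hg19, per the submitters' processing notes. HOMER called the peaks of each library on its own, per the file headers, at a false discovery rate of 0.001 and a 4-fold excess over a local window of 10000 bases with a Poisson p of 0.0001. FOXA1 lists were also filtered against input at the same limits, with 1 input library per treatment for both replicates, and HA lists were called without input. The deposited normalized tag count is, per the file headers, a signal value for a library of 1e+07 tags. A stricter limit of 20 on the deposited findPeaks score was used in 1 alternative only and not in the main choice. The deposited fold over local window or input is the caller's ratio, and the deposited fraction describes peak shape. Total tag counts, deposited for 3 libraries, were equalled at 97.3%, 100% and 100% of peaks by the normalized value times the library total over 1e+07, rounded to a whole number, and tags obtained in this way entered edgeR (4.0.16) with TMM factors.

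The members, comparison sets and limits were chosen with earlier results of these data known. Named regions are those with the largest smallest difference, the strongest, those beside the limit, the HA extremes, the regions close to each other and, for P5091, those with small p. P5091 was tested with limma (3.58.1, R 4.3.3, trend on) on centred log2 (tag count + 1) with 4 groups, and Benjamini-Hochberg adjustment over all 24242 regions. The step was also run on simulated data in which libraries vary independently. Real libraries of the same number correlate, as given next, so that run does not measure what the test could find here. Replicate numbers come from the titles and pair the libraries: deviations of same-numbered libraries from their group means correlated at 0.148 to 0.488 in all 6 pairs of groups. Overlap means at least 1 shared base. Genes near the regions and their sequences were not analysed here, because the reference tables used another build than hg19. Alternatives were other limits, scalings, pseudocounts and peak summaries, a score limit, the replicate block, edgeR and leaving out each library. Splits by signal with or without EPZ-6438, the left-out difference and edgeR with block were added after seeing the data.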

Additional observations from a re-analysis of the deposited data

How the results depend on the processing

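The number of rising regions depends on its limit and scaling: 1310 at a limit of 0.2, 258 at 0.5 and 41 without centring (35 of them among the 760). With a findPeaks score of at least 20, 332 of 10416 regions were chosen, or 3.19%, against 3.14% in the main choice. Leaving out 1 library, which leaves 3 differences, gave 1205 to 1729, with 741 to 760 of the 760 among them. These were 4.24% to 7.06% of the 24483 to 37729 regions called in all remaining libraries. Quantile normalization gave 666, of which 549 were among the 760, and removing the trend on signal 664, with 539.

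The HA WT overlap was 68.2% at a limit of 0.5 and 81.9% with the trend removed, and 72.0% to 81.8% when 1 library was left out, below the 85.1% to 91.3% of all regions in each case. A constitutive neighbour within 10 kb was found for 9.69% at a limit of 0.5 and for 12.5% to 21.5% without 1 library, against 21.3% to 29.5% of all regions. The highest value of each of these 2 ranges is that without combination replicate 1. The K295A over WT ratio was -0.019 at a limit of 0.5 and -0.07 to -0.02 without 1 library. Signal relative to all regions was -0.13 with the trend removed and -0.51 to -0.27 without 1 library, the last without combination replicate 1. The causes were not tested.

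The P5091 count was 0 under every alternative run, the replicate block (0) and edgeR with replicate block (0, with 1062 regions at an unadjusted p under 0.05) included. Without P5091 replicate 1, the median log2 difference for P5091 was 0.18 at rising regions, against -0.005 over the 24929 regions of that fit.

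Weak peaks limit the precision: at the median rising region, with 23 tags in combination replicate 1 and 29 in P5091 replicate 1, the counting standard error of the difference was 0.40, above the limit of 0.3.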
